A study of Mus musculus with 24 samples.

Results

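The cytosolic ribosomal proteins were examined as 1 family of transcripts. Its members were all protein_coding rows of the gene table whose symbol is Rpl or Rps with a number, Rplp0, Rplp1, Rplp2 or Rpsa, where an a, l or x may follow the number. This gave 80 of the 56748 genes in the table, 49 of the large and 31 of the small ribosomal subunit. The pattern leaves out some ribosomal protein genes with other symbols, such as Fau, Rps3a1 and Rack1, and takes in the paralogs Rpl3l, Rpl10l, Rpl39l and Rps27l.

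RNA was sequenced from endothelial cells of C57BL/6 mouse liver that had been isolated with beads against Cd31 (general endothelial cells) or Cd146 (sinusoidal endothelial cells), cultured, and transduced with a lentivirus 1 week before RNA isolation. The methods give 3-month-old female mice. P16Ink4a, the cell cycle inhibitor encoded by Cdkn2a, was silenced with a small hairpin in the vector pLKO.1 (P16 shRNA, control nc shRNA) or overexpressed as P16-GFP in pLenti-C-mGFP-P2A-Puro (P16, control empty vector). Both populations received all 4 constructs with 3 libraries each, 24 libraries in all. The methods mention puromycin selection as the measure of infection efficiency, and the share of transduced cells in the libraries is not given in the sources used here.

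Ribosomal proteins are the protein part of the ribosome. They are made in the cytosol, imported into the nucleus and assembled with ribosomal RNA in the nucleolus, and their synthesis is a large expense of a growing cell. Their mRNAs are abundant, short and usually start with a run of pyrimidines, through which mTOR signalling controls their translation. The mouse genome carries many reverse-transcribed copies of these mRNAs, most annotated as processed pseudogenes, with a sequence close to that of the parent mRNA. A sequencing read can then fit a gene and its copies almost equally well.

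Copies of the members were searched for among the other rows of the table, as genes whose transcripts shared at least 10% of their 31-base words with a member (GENCODE M21 transcripts). In total 990 copies were found for 77 of the 80 members, and 953 of them were annotated as processed pseudogenes. The closeness of such copies is shown for 6 members whose reads were divided differently between libraries, because this division is described below. Each line gives 30 coding bases of a member or the matching bases of its copy, 5′ to 3′, from a stretch with the most differences that lies within a single exon of both, with the differing bases in capitals. Positions are those of GRCm38.

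Rpl26 (chr11:68903290-68903319, + strand): accgtccaTgtgggcatccaccccagcaag
Gm15772, copy of Rpl26 (chr5:3236710-3236739, + strand): accgtccaCgtgggcatccaccccagcaag
Rpsa (chr9:120129234-120129263, + strand): TcctgctgaCgtcagcgtcatctcctccag
Rpsa-ps10, copy of Rpsa (chr3:150073304-150073333, - strand): CcctgctgaTgtcagcgtcatctcctccag
Rps18 (chr17:33952494-33952523, - strand): Agaactcacggaggatgaggtggagcgagt
Rps18-ps5, copy of Rps18 (chr13:28257806-28257835, + strand): Cgaactcacggaggatgaggtggagcgagt
Rps2 (chr17:24721033-24721062, + strand): ttgcCactgccatCcgaggggccatcatct
Rps2-ps13, copy of Rps2 (chrX:52899027-52899056, + strand): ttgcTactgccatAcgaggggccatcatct
Rpl34 (chr3:130729055-130729084, - strand): Tgcatgtggcgtgtgcccaggcagacttcg
Rpl34-ps1, copy of Rpl34 (chr6:71124741-71124770, + strand): Cgcatgtggcgtgtgcccaggcagacttcg
Rpl29 (chr9:106431237-106431266, + strand): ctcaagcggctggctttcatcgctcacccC
Gm13841, copy of Rpl29 (chr5:115801860-115801889, - strand): ctcaagcggctggctttcatcgctcacccT

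In these stretches 1 or 2 of 30 bases differed. Over the whole coding sequence, Rpsa-ps10 differed from Rpsa at 6 of 885 bases (99.3% identity), Rps2-ps13 from Rps2 at 7 of 879, Rps18-ps5 from Rps18 at 3 of 456, Gm13841 from Rpl29 at 3 of 480 and Rpl34-ps1 from Rpl34 at 2 of 351. For Rpl26 and Gm15772, 271 of 429 coding bases were compared, the longest stretch with few differences, and 5 of them differed. Of the 100-base words of the Rpl26 transcripts, 19.1% also occurred in a transcript of another gene, and for Rpl36a and Rps6 this share was 83.6%. How reads that fit several genes were counted is not given in the sources used here, so the count of a member is the number of reads assigned to its row in the deposited table.

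Some facts of the whole series bear on the values below. The reads on genes numbered 15409767 to 26470392 per library, so that a count of 0 allowed a level of up to 0.113 to 0.195 CPM (reads per 1000000 counted reads, here 3 reads, counting error only). Cdkn2a lay at 5.12 to 25.7 CPM in the 6 P16 shRNA libraries, 36.2 to 196 CPM in the 6 nc shRNA libraries, 32.5 to 104 CPM in the 6 empty vector libraries and 137 to 834 CPM in the 6 P16 libraries, in the direction of each label. Pecam1, which encodes Cd31, was at 61.5 to 281 CPM except in the 3 Cd146+ libraries numbered 3, where it was at 4.05 to 10.1 CPM and Mcam, which encodes Cd146, at 3.22 to 11.6 CPM. Stab2, a marker of sinusoidal endothelium, did not exceed 0.962 CPM in any library, while Col1a1, a mesenchymal collagen gene, was at 4319.7 CPM or more in 23 of the 24 libraries. The 16 libraries numbered 1 to 3 carried 4 Y-linked transcripts at a summed 124 to 255 CPM with Xist at 0.225 CPM or less, and the 8 libraries numbered 4 to 6 carried Xist at 327 to 760 CPM with at most 4 counts on those Y-linked genes, whereas the methods give female mice. The Cd146+ empty vector library numbered 4 stood apart, with Col1a1 at 460.2 CPM and Sfrp2 at 4785 CPM.

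The members took 2.81% to 6.37% of the counted reads of a library, with a median of 4.24%. Per length, Rplp1 and Rplp0 of the ribosomal stalk were the highest members, while the third stalk gene, Rplp2, was at 205 CPM per kb. Rplp1 had the highest level per length with a mean of 2847 CPM per kb of gene length (TMM-normalised CPM, mean of 24 libraries). Next were Rplp0 with 1305, Rps15 with 969, Rpl41 with 904 and Rpl36 with 858 CPM per kb. The order depends on the deposited gene length, which may differ from that of the mRNA. It was 499 bases for Rplp1, 1659 for Rplp0 and 2072 for Rplp2. Not divided by length, their means were 1421, 2166 and 424 CPM.

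At the other end of the order were 5 members. Rps10, a small subunit protein, was at 1.57 CPM per kb (1817 reads in all libraries together) and Rpl24, a large subunit protein, at 1.51 CPM per kb (759 reads). The copy Rps10-ps2 on chromosome 16 held 97279 reads, so that the Rps10 row carried 1.75% of the reads of Rps10 and its copies, and the Rpl24 row carried 16.8% of the reads of Rpl24 and its copies. The remaining 3 were the paralogs Rpl39l with 91 reads, Rpl3l with 26 reads and Rpl10l with 0 reads, which are known for expression in testis or in striated muscle. These paralogs did not pass the filter on low counts in the comparisons, and 77 members were tested.

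**Figure D1:**
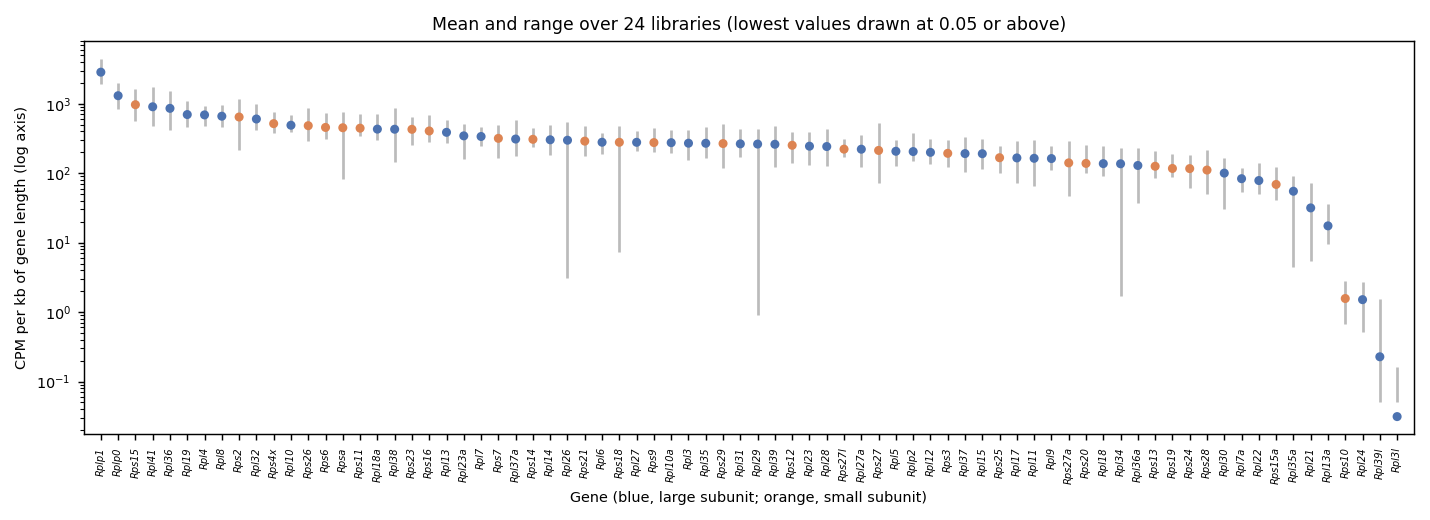
Mean level of 76 ribosomal protein genes (dots, CPM per kb of gene length, log axis; blue, large subunit, orange, small subunit) and the range over the 24 libraries (grey lines), ordered by mean; Rpl10l, with 0 reads, and some other members are not drawn. The lowest values of Rpl26, Rps18, Rpl29, Rpl34 and Rpl35a, all in the Cd146+ empty vector library 4, lie far below their means.

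Paralogs and X-linked members could be set side by side per length. Rps27l, which is known as a p53 target, had a mean of 222 CPM per kb against 213 CPM per kb for its partner Rps27. Among the 24 libraries Rps27l ranged from 141 to 257 CPM and Rps27 from 76.5 to 550 CPM, so that Rps27 had the wider range. The Rps27 row held 24.03% to 94.8% of the reads of Rps27 and its copies, whereas that of Rps27l held more than 99.9% in every library. With the copies added, the mean of Rps27 was 289 CPM per kb, and its SD over the libraries (log2 scale) was 0.43 instead of 0.62, against 0.26 for Rps27l. The 4 X-linked members Rps4x, Rpl10, Rpl39 and Rpl36a had means of 517, 490.3, 261 and 129 CPM per kb.

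The median spread of members within a group was somewhat above that of other genes. The SD of a member within a group of 3 libraries had a median of 0.33 on the log2 scale, against 0.31 for all genes tested over the 24 libraries and 0.28 for the 516 genes with counts as high as the lower quartile of the members. Some members departed far from the rest. The level of a member was set against the median of the members in the same library, and the SD of this difference over the 24 libraries (log2 scale) had a median of 0.19. It was highest for Rpl29 (1.44), Rpl26 (1.28), Rpl34 (1.15), Rps18 (1.06) and Rpl21 (0.79). When the reads of each member were added to those of its copies, these became 0.40, 0.14, 0.11, 0.47 and 0.49, and the number of members with an SD over 0.5 went from 9 to 1.

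Rpl26, a large subunit protein near the exit of the nascent chain, showed such a division of reads between a gene and a copy. In the 16 libraries numbered 1 to 3 it had a median of 515 CPM, with 356 CPM as the lowest and 793 CPM as the highest value. In the 7 libraries numbered 5 and 6 the median was 250.3 CPM (227 to 382 CPM), which overlapped in range, and in the Cd146+ empty vector library 4 the level was 4.49 CPM. The copy Gm15772 on chromosome 5 ran the other way, with a median of 28.3 CPM (18.3 to 38.9 CPM) in libraries 1 to 3, 296 CPM (269 to 434 CPM) in libraries 5 and 6, and 355 CPM in library 4. Gm15772 in libraries 1 to 3 did not overlap with the others. The Rpl26 row thus held a median of 94.3%, 45.5% and 1.24% of the reads of Rpl26 and its copies in the 3 sets of libraries.

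Rpsa, the laminin receptor of the small subunit, showed the same order. Its level was 1009 to 2420.2 CPM in libraries 1 to 3, 817 to 1396 CPM in libraries 5 and 6 and 264 CPM in library 4. Its copy Rpsa-ps10 was at 51.3 to 123 CPM, 506 to 856 CPM and 798 CPM in the same order, and the share of the reads on the Rpsa row was 92.1%, 58.1% and 22.8%. For Rps18, a small subunit protein of the head, the shares were 98.3%, 73.9% and 11.2%, and its level in library 4 was 18 CPM against 347 to 1177 CPM in the other 23 libraries. The copy Rps18-ps5, which is annotated as protein_coding, had a median of 11 CPM in libraries 1 to 3 and of 122 CPM in libraries 5 and 6.

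Of 76 genes with copies, 7 had medians of the share on the gene itself that differed by more than 10 percentage points between libraries 1 to 3 and libraries 5 and 6. All of them were lower in libraries 5 and 6, namely Rpl26, Rpsa, Rps2 (89.3% against 56.0%), Rps18, Rpl3 (92.7% against 77.1%), Rps26 (99.0% against 83.8%) and Rps12 (73.1% against 60.8%). The ranges of Rps12 overlapped (57.7% to 82.8% and 58.5% to 77.1%). In the others the medians differed by at most 9.63 percentage points. The ranges did not overlap in 9 genes, all of them higher in libraries 1 to 3, and in 0 genes in the other direction.

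Some members were low in the Cd146+ empty vector library 4 alone. Rpl34, a large subunit protein, was at 4.49 CPM there against 253 to 599.6 CPM in the other 23 libraries, while its copy Rpl34-ps1 was at 278 CPM against 7.54 to 28.1 CPM. Rpl29, also of the large subunit, was at 1.01 CPM there against 203 to 489.7 CPM elsewhere, while its copy Gm13841 was at 55.2 CPM against 18.4 to 40.7 CPM. This copy thus stayed below the lowest value of Rpl29 elsewhere. With all copies added, the SD over the 24 libraries (log2 scale) went from 1.30 to 0.31 for Rpl34. It went from 1.59 to 0.56 for Rpl29 and from 0.82 to 0.51 for Rpl35a. The shares on the gene in library 4 were 1.58% for Rpl34, 1.51% for Rpl29, 27.4% for Rpl35a and 55.4% for Rpl30.

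**Figure D2:**
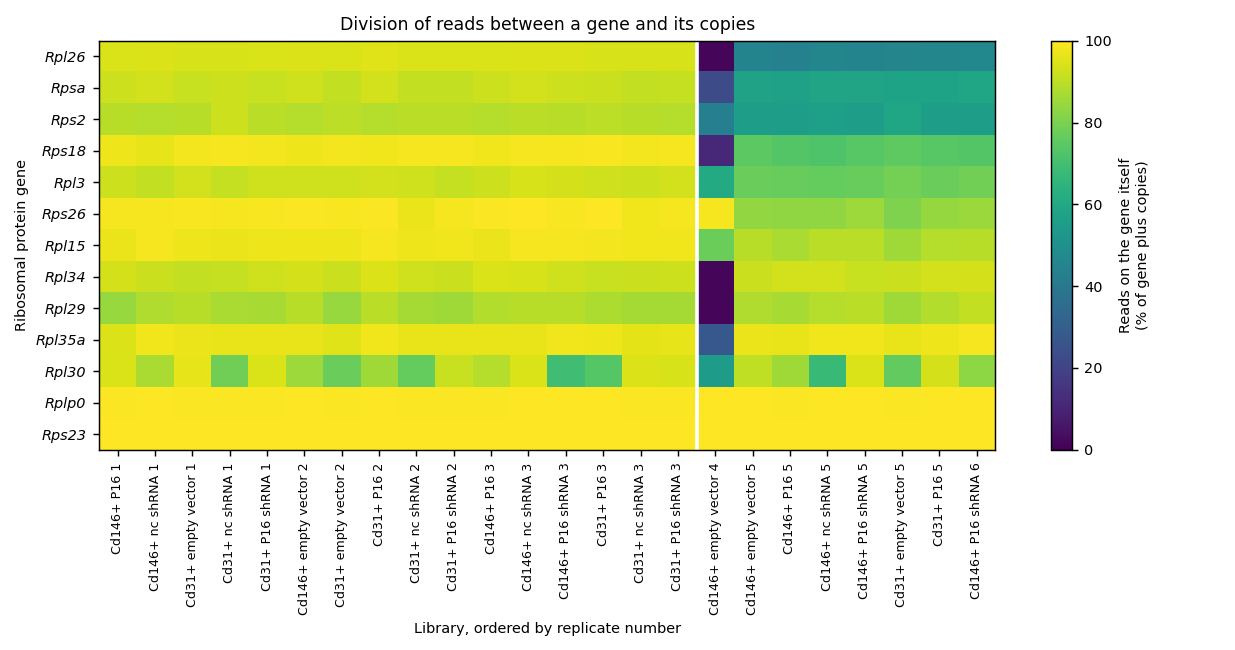
Share of the reads of a gene and its copies that were counted on the gene itself (colour, percent) for 13 ribosomal protein genes in the 24 libraries, ordered by replicate number, with a white line between numbers 3 and 4. The upper 7 genes have lower shares in libraries 5 and 6, right of the line, than left of it, Rpl34, Rpl29 and Rpl35a have a low share in the Cd146+ empty vector library 4, and Rplp0 and Rps23 hold nearly all reads in every library.

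The copies together took 7.27% to 8.53% of the reads of members and copies in libraries 1 to 3, and 10.7% to 15.1% in libraries 4 to 6, without overlap. The members' own share of the counted reads did overlap, at 3.17% to 6.33% and 2.81% to 6.37%. Replicate numbers are unevenly spread over the Cd146+ groups, while all 6 Cd31+ libraries with P16 shRNA or nc shRNA are numbered 1 to 3. What the replicate numbers stand for is not given in the sources used here, and the part of the animals, the cells or the counting in this division was not tested.

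The share of reads on the members gives the level of the family in each library. In Cd31+ cells it was 3.57%, 4.71% and 3.78% with nc shRNA (replicates 1, 2 and 3) and 4.62%, 4.58% and 4.18% with P16 shRNA (replicates 1, 2 and 3), and the groups overlapped. With empty vector it was 4.07%, 4.50% and 4.12% (replicates 1, 2 and 5), and with P16 6.33%, 3.59% and 4.02% (replicates 2, 3 and 5), where replicate 2 lay above the other Cd31+ libraries. In Cd146+ cells it was 3.29%, 4.43% and 4.31% with nc shRNA (replicates 1, 3 and 5) and 5.17%, 4.53% and 6.37% with P16 shRNA (replicates 3, 5 and 6), so that the 3 P16 shRNA libraries lay above the 3 nc shRNA libraries. With empty vector it was 4.34%, 2.81% and 3.96% (replicates 2, 4 and 5) and with P16 3.17%, 4.72% and 3.82% (replicates 1, 3 and 5), with overlap. In bulk libraries, fewer cells with a transcript and less of it per cell cannot be told apart.

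**Figure D3:**
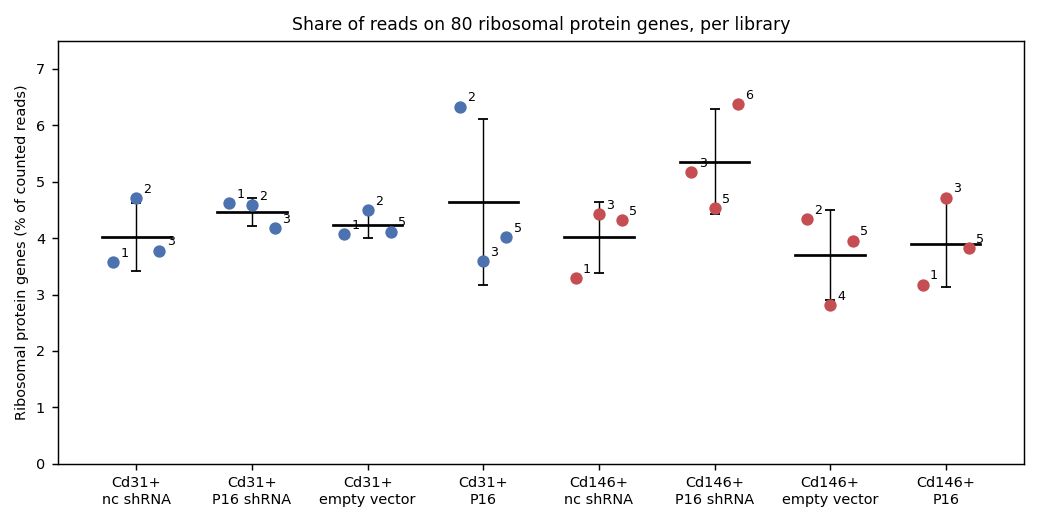
Percent of counted reads on the 80 ribosomal protein genes in each library (dots, with the replicate number), with the mean (line) and SD (bars) of each group of 3; blue marks Cd31+ and red Cd146+ cells. The 3 Cd146+ libraries with P16 shRNA lie between 4.53% and 6.37%, above those with nc shRNA (3.29% to 4.43%).

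The comparisons asked whether silencing or overexpression of P16Ink4a was accompanied by another level of ribosomal protein transcripts. The 6 libraries of a construct and its control were tested with edgeR (quasi-likelihood, two-sided), and p-values were adjusted over all genes. No member passed an adjusted p of 0.05 in these 4 comparisons, and the smallest adjusted p of a member was 0.162 in edgeR, while DESeq2 gave 1 member with an adjusted p under 0.05 in Cd31+ cells with P16 shRNA and 0 in the other 3 comparisons. Counts below therefore use an unadjusted p under 0.05, beside the share of all tested genes that met the same rule. Counts from fits with a library left out have no such share beside them, and show only how far the count moves. No label says that the libraries of a group came from separate animals, and the p-values then measure the spread between these libraries. In Cd31+ cells with P16 shRNA or nc shRNA this spread may be technical. Each of the other groups mixed libraries carrying Y-linked transcripts with libraries carrying Xist, so its spread also takes in that difference.

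In Cd146+ cells, the median member was higher with P16 shRNA than with nc shRNA by a log2 fold change of 0.43 (all genes tested, 0.03), and 73 of 77 members had a positive fold change. At an unadjusted p under 0.05, 11 members were higher (all genes, 5.44%) and 1 was lower (all genes, 6.18%). In 25 members each P16 shRNA library was above each nc shRNA library (all genes, 10.5%), and in 1 each was below (all genes, 10.1%). The medians of the large and of the small subunit were 0.45 and 0.43.

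Rpl36, a small protein of the large subunit, had the smallest p among the higher members. It was at 238, 335 and 304 CPM with nc shRNA and at 442, 356 and 576 CPM with P16 shRNA, without overlap (log2 fold change 0.65 ± 0.24, SE, edgeR adjusted p = 0.420). Rpl18, also of the large subunit, was at 368, 489 and 553 CPM against 670.2, 606 and 988 CPM (0.69 ± 0.26), again without overlap. Next by p were Rpl29 (0.64), Rps15a (0.60) and Rpl35a (0.54), all without overlap. Rpl32, Rpl31, Rpl36a and Rps27a were also among the 11 and did not overlap, whereas Rpl27 did.

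Rps27a, which is made as a fusion with ubiquitin, had the highest fold change among the members in this comparison (1.07 ± 0.44). Its values were 91.9, 162 and 175 CPM with nc shRNA and 209, 195 and 493 CPM with P16 shRNA. The groups did not overlap, and replicate 6 lay well above the other 2 P16 shRNA libraries.

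These counts depended on the libraries and on the replicate numbers. Without P16 shRNA replicate 6 no member was called (median 0.25), without nc shRNA replicate 1 no member was higher and 1 was lower (median 0.30), without nc shRNA replicate 3 there were 4 higher, and without P16 shRNA replicate 5 there were 23. Numbers 3 and 5 occur in both groups, and within them the median member was higher by 0.24 (number 3) and 0.06 (number 5) on the log2 scale. A replicate block, a term for the replicate number, rests on those pairs when fitted over the 6 libraries. It gave a median fold change of 0.18, with 1 member higher (all genes, 7.57%) and 2 lower (all genes, 8.95%). The block over the 12 Cd146+ libraries gave 0.16, with 16 members higher (all genes, 13.5%) and 3 lower (all genes, 13.9%), and 1 member passed an adjusted p of 0.05 (all genes, 8.33%).

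Marker sums of other cell types differed between the same libraries. The sum of 9 mesenchymal markers was 11028, 27402 and 26638 CPM with nc shRNA and 31596, 30582 and 25528 CPM with P16 shRNA, with 1 of the 8 tested markers, Col3a1, higher at an unadjusted p under 0.05 and none lower. The sum of 5 cholangiocyte markers was 38.4, 54.5 and 218 CPM against 166, 295 and 254 CPM, and that of 15 endothelial markers was 1227, 344 and 1925 CPM against 308, 1692 and 1767 CPM. The part of these cell types in the member values was not tested.

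Rpl15 had the opposite sign to most of the family. This large subunit protein was at 464, 606 and 479 CPM with nc shRNA and at 441, 283 and 339.7 CPM with P16 shRNA in Cd146+ cells, and the 3 P16 shRNA libraries lay below (log2 fold change -0.54 ± 0.22, edgeR adjusted p = 0.428). With the block over the 12 Cd146+ libraries it was the member that passed, with -0.61 ± 0.10 and an adjusted p of 0.0105. In that fit 8.33% of all genes passed. The block over the 6 libraries compared gave -0.61 ± 0.14 with an adjusted p of 0.196. Without a block, fits with 1 library removed gave Rpl15 fold changes of -0.73 to -0.40. In 4 of these 6 fits it missed an unadjusted edgeR p of 0.05. With its copies added, the fold change was -0.50.

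In Cd31+ cells, Rpl15 was at 348, 621 and 507 CPM with nc shRNA and at 360.3, 338 and 316 CPM with P16 shRNA. Replicate 1 of nc shRNA lay among the P16 shRNA libraries, so the groups overlapped (log2 fold change -0.54 ± 0.21, edgeR adjusted p = 0.217). Fits with 1 library removed gave fold changes of -0.75 to -0.34. In 5 of these 6 fits Rpl15 missed an unadjusted edgeR p of 0.05. In pairs with the same number the difference was 0.05, -0.88 and -0.68 on the log2 scale in Cd31+ cells (numbers 1, 2 and 3) and -0.46 and -0.76 in Cd146+ cells (numbers 3 and 5).

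**Figure D4:**
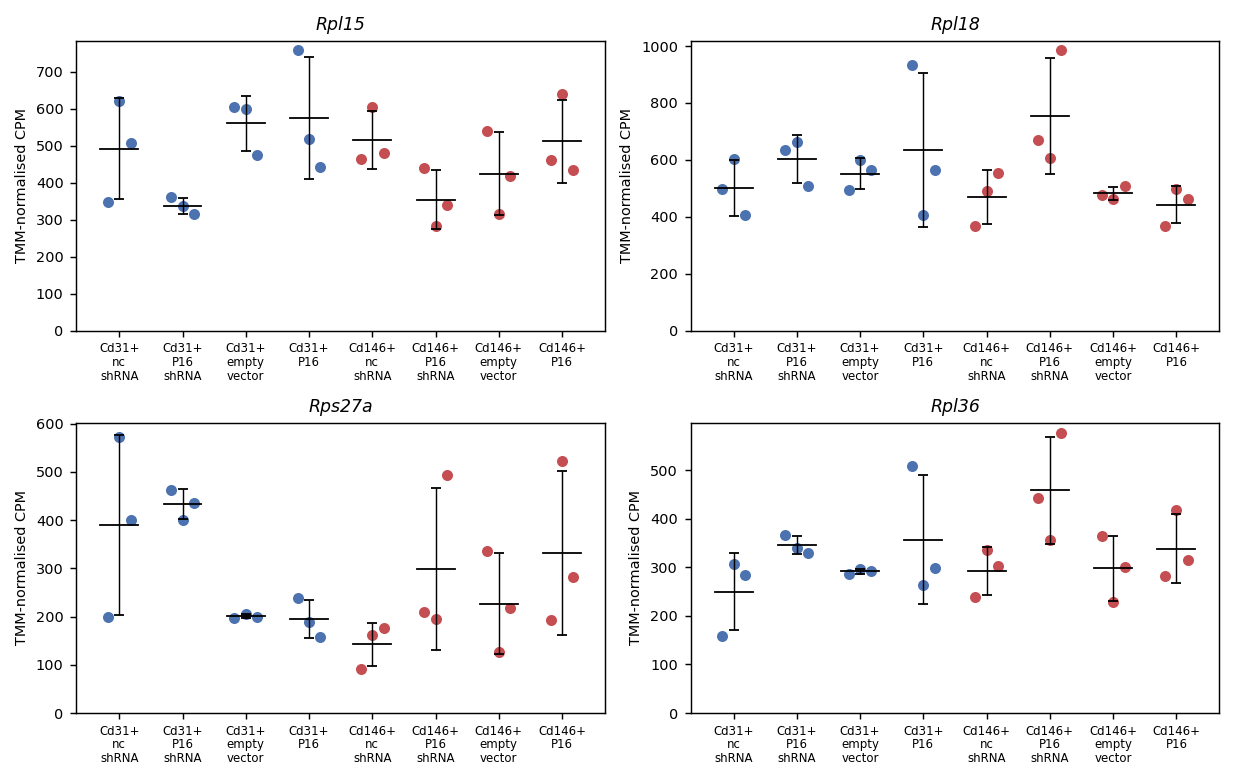
Levels of Rpl15, Rpl18, Rps27a and Rpl36 (TMM-normalised CPM) in the 24 libraries, with the mean (line) and SD (bars) of each group of 3; blue marks Cd31+ and red Cd146+ cells. Rpl15 lies at 283 to 441 CPM in the 6 P16 shRNA libraries and at 348 to 621 CPM in the 6 nc shRNA libraries.

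The family as a whole in Cd31+ cells with P16 shRNA had a median log2 fold change of 0.14 (all genes, 0.00), with 66 of 77 members positive. In the pairs with the same number the median member differed by 0.43, -0.06 and 0.12 (numbers 1, 2 and 3), and 19 of 77 members were positive in number 2. With each library left out the median lay between 0.06 and 0.26. At an unadjusted p under 0.05, 2 members were lower, among them Rpl15 (all genes, 10.3%), and none was higher (all genes, 9.51%). The groups did not overlap in 4 members with higher values, Rpl30, Rpl29, Rpl6 and Rpl36 (all genes, 13.8%), and in 1 with lower values (all genes, 13.6%). With its copies added Rpl30 overlapped, at 219, 360.1 and 300.0 CPM against 387, 356 and 322 CPM, while Rpl29, Rpl6 and Rpl36 did not. With the replicate block over the 6 libraries 8 members were higher (all genes, 16.8%) and 2 lower (all genes, 17.1%), and 1 passed an adjusted p of 0.05, where 18.8% of all genes passed against 1.30% without the block. Without nc shRNA replicate 2 there were 19 higher and 1 lower, and without P16 shRNA replicate 3 none in either direction. The share of all genes in these fits is not given, so the 19 cannot be set against other genes.

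Overexpression of P16 in Cd31+ cells gave a median of 0.19 (all genes, 0.01), with 71 of 77 members positive. No member had an unadjusted p under 0.05 in edgeR or DESeq2 (all genes in edgeR, 1.45% higher and 2.29% lower), and in no member were the groups apart (all genes, 4.60% higher and 6.07% lower). Without P16 replicate 2 the median was -0.14, and without P16 replicate 3 it was 0.39 with 15 members higher. In the pairs with the same number, the median member was higher by 0.59 in number 2 and by 0.02 in number 5.

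With the replicate block over these 6 libraries, 20 members were higher (all genes, 3.73%) and 2 lower (all genes, 4.25%). An adjusted p of 0.05 was passed by 4 (all genes, 0.632%), namely Rpl30, Rps28, Rpl39 and Rpl38. Only numbers 2 and 5 occur in both groups, so this block rests on those pairs, whose medians were 0.59 and 0.02. With so few pairs the p-values lean on the spread estimated over all genes, and these calls say little of single members. Rpl39, which lines the exit tunnel of the ribosome, was at 278, 295 and 307 CPM with empty vector and at 677, 201 and 429 CPM with P16. The groups overlapped, and without the block the fold change was 0.57 ± 0.40. The block over the 12 Cd31+ libraries gave 8 members higher (all genes, 5.98%) and 0 with an adjusted p under 0.05.

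In Cd146+ cells with P16, the median was 0.11 (all genes, -0.00), with 57 of 77 members positive. No member had an unadjusted p under 0.05 in edgeR or DESeq2 (all genes in edgeR, 1.55% higher and 1.99% lower). The groups were apart with higher values in 1 member, Rpl7a (all genes, 3.64%), and with lower values in 1, the sparse row of Rps10 (all genes, 4.89%). Without the empty vector library 4, in which several member rows were nearly empty, the median was -0.06.

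**Figure D5:**
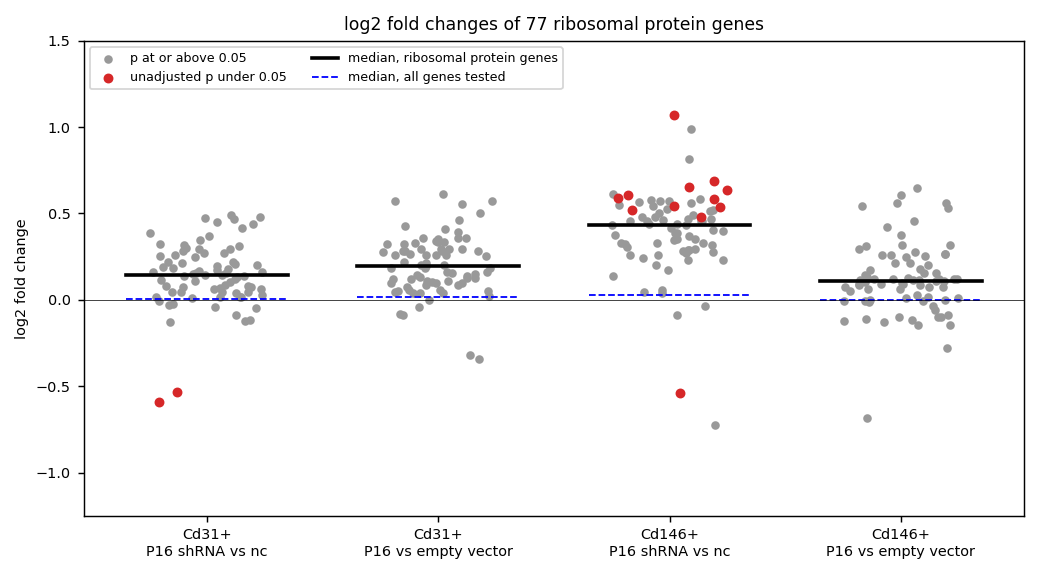
log2 fold changes of the 77 tested ribosomal protein genes in the 4 comparisons of construct with control (dots; red, unadjusted p under 0.05), with the median of the family (black line) and of all genes tested (blue dashed line). The median of the family is 0.43 in Cd146+ cells with P16 shRNA and between 0.11 and 0.19 in the other comparisons.

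Members with known special roles did not pass an unadjusted p of 0.05 for the 4 construct comparisons except Rps27a. Rplp0, the stalk base and a common reference gene in RT-PCR, was at 1385 to 3353 CPM over the 24 libraries, and its log2 fold changes were 0.11 ± 0.14 (Cd31+, P16 shRNA), 0.11 ± 0.24 (Cd31+, P16), 0.33 ± 0.20 (Cd146+, P16 shRNA) and 0.11 ± 0.24 (Cd146+, P16). Of the other reference genes, Actb was at 2694 to 4497 CPM, and the row of Gapdh, which is also known for many copies in the mouse genome, was at 5.31 to 216 CPM.

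Rpl5 and Rpl11, which bind Mdm2 when ribosome assembly is disturbed, were at 495 to 1177 CPM and 178 to 807 CPM. In Cd146+ cells with P16 shRNA their fold changes were 0.35 ± 0.21 and 0.58 ± 0.30, and in Cd31+ cells 0.08 ± 0.11 and 0.44 ± 0.34. Rps6, the substrate of the ribosomal S6 kinases, was at 519, 670.4 and 805 CPM with nc shRNA and at 909, 836 and 1079 CPM with P16 shRNA in Cd146+ cells, without overlap (0.50 ± 0.22). Its unadjusted p of 0.0588 in edgeR missed the threshold. The stalk genes Rplp1 and Rplp2 had fold changes of 0.47 ± 0.26 and 0.57 ± 0.26 in that comparison.

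The difference between the populations in the effect of a construct was fitted over the 24 libraries. For P16 shRNA the median over members of this difference, Cd146+ minus Cd31+, was 0.27 on the log2 scale, and no member had an unadjusted p under 0.05 (all genes, 1.20%). With the replicate block over the groups compared this median was -0.03. For P16 it was -0.08, again with no member under 0.05 (all genes, 3.82%).

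Between the control libraries of the populations (6 Cd146+ and 6 Cd31+, nc shRNA and empty vector), the median member had a log2 fold change of -0.07, Cd146+ relative to Cd31+ (all genes, 0.02). At an unadjusted p under 0.05, 5 members were lower (all genes, 9.12%) and 1 was higher (all genes, 8.34%), and none passed an adjusted p of 0.05. Lower were Rpl3, a large subunit protein near the peptidyl transferase centre (-0.47 ± 0.15), Rpl7 and Rps12, among others. The higher member was Rps27l (0.27 ± 0.12). Rpl3 and Rps12 are among the genes whose reads were divided with copies by replicate number, with overlapping ranges for Rps12. Libraries 4 to 6 made up 3 of the 6 Cd146+ and 1 of the 6 Cd31+ controls. With each library left out in turn and without a block, Rpl3 and Rpl7 kept an unadjusted edgeR p under 0.05 in all 12 fits. Rps12 and Rps27l each missed it in 8 of the 12. With the replicate block over the 12 control libraries 11 members were higher (all genes, 9.00%) and 4 lower (all genes, 9.40%). Rpl3 was among the lower (-0.31 ± 0.11), and Rpl7 was not. This block pairs the same number across the populations, where such a pairing was not checked. Without the block and without the Cd146+ empty vector library 4 there were 8 higher and 2 lower, with a median of 0.01.

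The controls of a population were also compared with each other. In Cd31+ cells Rps27a had an unadjusted p under 0.05 between nc shRNA and empty vector (all genes in either direction, 3.16%), with 199.6, 573 and 399.5 CPM against 198, 205 and 199.7 CPM, which overlapped. The replicate block over these libraries gave 0 members higher (all genes, 5.78%) and 14 lower (all genes, 7.34%). Only numbers 1 and 2 occur in both groups, so this block rests on those pairs. In Cd146+ cells no member had an unadjusted p under 0.05 (all genes, 3.99%).

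Genes around the family came from 6 lists and the same fits. Of 46 ribosome biogenesis genes, 17 were higher and 2 lower with P16 shRNA in Cd31+ cells at an unadjusted p under 0.05 (median log2 fold change 0.25), beside 9.51% and 10.3% of all genes. Nop14, a factor of small subunit assembly (0.56 ± 0.09, adjusted p = 0.0400), and Nop56, a core protein of the complexes that methylate ribosomal RNA (0.62 ± 0.10, adjusted p = 0.0424), also passed the adjusted threshold, as 2 of the 46. In Cd146+ cells 6 of the 46 were higher and none lower (median 0.35), beside 5.44% and 6.18% of all genes, led by Nop16 (0.60 ± 0.20) and Nop56 (0.83 ± 0.28, adjusted p = 0.402).

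Of 18 genes of RNA polymerase I and its factors, 5 were higher (all genes, 9.51%) and none lower (all genes, 10.3%) with P16 shRNA in Cd31+ cells. They were led by Polr2k (0.49 ± 0.15) and Polr1c (0.32 ± 0.11). In Cd146+ cells none was higher (all genes, 5.44%) or lower (all genes, 6.18%). Of 16 regulators of ribosomal protein expression, 2 were higher (all genes, 9.51%) and 1 lower (all genes, 10.3%) with P16 shRNA in Cd31+ cells, counts near those shares. Eif4ebp2, an mTOR-controlled repressor of translation, was lower (-0.74 ± 0.09, adjusted p = 0.0218), and its paralog Eif4ebp1 was higher (0.53 ± 0.14). In Cd146+ cells Eif4ebp2 had a fold change of -0.79 ± 0.24 (adjusted p = 0.385) and Myc, a driver of ribosome synthesis, of 0.70 ± 0.29 (adjusted p = 0.428).

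Of 22 mRNAs of translation factors and other proteins with a pyrimidine start, 1 was lower with P16 shRNA in Cd31+ cells, namely Vim (-0.52 ± 0.15). None was higher there (all genes, 10.3% lower and 9.51% higher). In Cd146+ cells none passed (median 0.17, all genes, 5.44% higher and 6.18% lower). Between the controls of the populations 8 of the 22 were lower in Cd146+ cells (all genes, 9.12%) and none higher (all genes, 8.34%), led by Eef2 (-0.44 ± 0.12) and Eif4b (-0.39 ± 0.11). Of the 8 ribosomal protein genes outside the symbol pattern, Rpl7l1 was higher with P16 shRNA in Cd31+ (0.48 ± 0.09, adjusted p = 0.0624) and in Cd146+ cells (0.59 ± 0.20, adjusted p = 0.407). Of 10 chaperones and importers of ribosomal proteins, Ipo9 was lower (-0.39 ± 0.10) and Ipo7 higher (0.46 ± 0.17) with P16 shRNA in Cd31+ cells, and Bccip was higher in Cd146+ cells (0.58 ± 0.18). With P16, 0 to 2 genes of each list had an unadjusted p under 0.05 in either population. Of all genes, 1.45% were higher and 2.29% lower in Cd31+ cells, and 1.55% and 1.99% in Cd146+ cells.

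The pyrimidine start could be read from the RefSeq start sites (GRCm38.p6). A C at the annotated start followed by at least 4 more pyrimidines, on the strand of the gene, was present in 13 of the 60 members with an annotated start (21.7%) and in 3.0% of all 27025 genes. The rule asks for the C exactly at the annotated base. A run that starts a few bases away was not counted, so 21.7% is not the share of members that have such a run. Windows of 30 bases from 10 bases before the start are shown for 4 members described above, to set the start of Rpl15 beside those of members with positive fold changes in Cd146+ cells with P16 shRNA, with the pyrimidine run in capitals.

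Rpl15 (chr14:18270967-18270996, - strand): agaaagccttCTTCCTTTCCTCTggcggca
Rps6 (chr4:86857348-86857377, - strand): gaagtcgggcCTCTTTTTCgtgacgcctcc
Rps18 (chr17:33955646-33955675, - strand): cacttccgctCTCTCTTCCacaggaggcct
Rpl35a (chr16:33056472-33056501, + strand): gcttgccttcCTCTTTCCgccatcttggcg

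Rpl15 had the longest run of these, with 13 pyrimidines, against 9 in Rps6, 9 in Rps18 and 8 in Rpl35a. Among members not shown, Rpl35 had 11 and Rps10 had 10. Whether the length of the run goes with the fold change was not tested. Such a run is a description of the annotated start and not of translation, which was not measured.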

How the data were processed

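The authors deposited a count of reads per gene for each library, not normalized. The submitters' processing notes name fastp and the build mm9, and the aligner and counting rule are not given in the sources used here. Gene positions in the table differed from those of GRCm38 for the genes looked at (Rplp0, Rpsa and Rpl26). They served only to leave out candidate copies that overlap their own member, and no start or end from them is given here. Libraries were made with poly-T beads and were not directional. Deposited FPKM, group means and the authors' comparisons (fold changes, p-values) were not used. Libraries were grouped by population and construct from the labels. Counts were tested with edgeR 4.0.16 (R 4.3.3, filterByExpr, TMM, robust quasi-likelihood fit). CPM were TMM-normalised over the 24 libraries, and 0.5 CPM was added before logarithms. Alternatives were 2 gene filters, 4 scalings, DESeq2 1.42.0, a pooled fit, replicate blocks, members with pseudogenes and each library left out. Summed copies and a term for numbers 1 to 3 against 4 to 6 were added after the data were seen. The fits were tested on simulated data. Members and lists were chosen with earlier results of these data known. Named were members with known roles, paralogs, X-linked members, the 5 most and 5 least abundant per length, the 5 with the smallest p per direction, the 5 with the largest departure, reference genes, and 2 genes per list and comparison. Some members are not reported here by name. Copies, and other members named with a count, were chosen after their values were seen.

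After group means were removed, same-numbered libraries of Cd31+ cells correlated over all genes tested at a median r of 0.576 (lowest of 13 pairs, 0.360). Those of Cd146+ cells did so at 0.699 (lowest of 10 pairs, 0.350). Libraries with different numbers gave -0.173 and -0.0651. Over the members alone, same-numbered libraries gave a median r of 0.254 in Cd31+ cells (lowest, -0.306) and 0.692 in Cd146+ cells (lowest, -0.215). Different numbers gave -0.068 and -0.095 over the members. The numbers come from the labels and were taken to pair the libraries. These correlations were taken within a population only, while the block for the controls of the populations also pairs numbers across them.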

Additional observations from a re-analysis of the deposited data

How the results depend on the processing

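Members with an unadjusted p under 0.05 were counted under each alternative. The share of all genes is not set beside these counts or the leave-one-out counts below. They show how far the member count moves, and not whether the family differs from other genes. In Cd31+ cells with P16 shRNA, 18.8% of all genes had an adjusted p under 0.05 with the block over the groups compared, against 1.30% without it. In Cd31+ cells with P16 shRNA (2) there were 18 when all genes with at least 1 count were tested, 4 with library totals as scaling, 4 with DESeq2, 10 with the replicate block over the groups compared and 4 with the block over the population's 12 libraries, and members with an adjusted p under 0.05 (0) numbered 4 with genes of at least 1 count, 1 with DESeq2 and 1 with each block. In Cd31+ cells with P16 (0) there was 1 with genes of at least 1 count, 22 with the block over the groups and 8 over all libraries, with 4 adjusted in the former. In Cd146+ cells with P16 shRNA (12) there were 24 with DESeq2, 3 with the block over the groups, 19 over all libraries (1 adjusted) and 3 with a term for numbers 1 to 3 against 4 to 6. In Cd146+ cells with P16 (0) there were 2 with the block over all libraries. For nc shRNA against empty vector in Cd31+ cells (1) there were 0 with genes of at least 1 count, 14 with the block over the groups (1 adjusted), 2 over all libraries and 0 with the number term, and in Cd146+ cells (0) there was 1 with genes of at least 1 count. For the controls of the populations (6) there were 3 in a pooled fit, 15 with the block over the groups and 11 over all libraries. For the difference between populations, the median member log2 fold change for P16 shRNA was -0.026 with the replicate block over the groups compared, and 2 members were called for P16 with the block over all libraries. The cause of these shifts was not tested.

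With each library left out in turn, counts ranged from 0 to 20 (Cd31+, P16 shRNA), 0 to 15 (Cd31+, P16), 0 to 23 (Cd146+, P16 shRNA), 0 to 2 (Cd146+, P16), 0 to 10 and 0 to 1 (nc shRNA against empty vector, Cd31+ and Cd146+), 2 to 11 (controls) and 0 to 1 (both differences between populations). The median ranged from 0.06 to 0.26 (Cd31+, P16 shRNA), -0.14 to 0.39 (Cd31+, P16), 0.25 to 0.55 (Cd146+, P16 shRNA), -0.06 to 0.23 (Cd146+, P16), -0.23 to -0.01 and -0.05 to 0.25 (nc shRNA against empty vector, Cd31+ and Cd146+), -0.13 to 0.01 (controls), 0.11 to 0.40 (difference, P16 shRNA) and -0.28 to 0.23 (difference, P16). Not run were the block over the groups compared for Cd146+ P16, for Cd146+ nc shRNA against empty vector and for the P16 difference (fewer than 2 shared numbers), pooled fits of the differences, and the number term for Cd31+ P16 shRNA, where all libraries are numbered 1 to 3. Counts of 0 adjusted calls at this size and low member rows in the Cd146+ empty vector library 4 limit what can be said of single members.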
